A study of Mus musculus with 9 samples.

Results

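The transcripts described here are those of 8 secreted proteins of cartilage, C1qtnf3, Cytl1, Ucma, Cilp, Cilp2, Scrg1, Chil1 and Clu, taken by Ensembl ID from tables of 53379 gene IDs. They were chosen by their expression in cartilage and by the measured changes of C1qtnf3, Cytl1 and Ucma between groups in these same libraries. The differences of those 3 genes are therefore given as a description without a p-value, and tests are given for the other 5 genes only. The 9 RNA-seq libraries came from knee joints of mice in 3 groups, with 3 libraries a group. The PC2 group had its anterior cruciate ligament cut (ACLT, a surgical model of osteoarthritis) at 8 weeks of age, received a lentivirus expressing PC2 in the joint cavity 1 week later, and was collected 8 weeks after the virus. The Luc group had the same operation and timing with a lentivirus expressing Luc. The Non surgery group was not operated. The operated mice were male C57BL/6; the sources used here do not give the age of the Non surgery mice, the promoter in the viruses or how many mice made up a group. The mice of a group were pooled as RNA before 3 technical repeats were made, so each group is 1 pool, and every SD, SE and p-value below measures technical spread and holds no difference between mice.

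Articular cartilage is a tissue of few cells in a large matrix that its chondrocytes secrete and maintain. Its bulk is collagen II and aggrecan, but chondrocytes also release less abundant proteins that sit in the matrix or act as signals. C1qtnf3 (also called CTRP3 or cartducin) is a C1q/TNF-related secreted protein of growing cartilage and fat, and Cytl1 is a cytokine-like protein made by chondrocytes. Ucma, or Gla-rich protein, carries vitamin K-dependent gamma-carboxyglutamate and restrains mineral deposition. Cilp, cartilage intermediate layer protein, lies in the middle zone of articular cartilage and can bind TGF-beta and hamper IGF1, and Cilp2 is its relative. Scrg1 is a small cysteine-rich protein found in differentiating cartilage. Chil1 (BRP-39, called YKL-40 in humans) is a chitinase-like protein without chitinase activity made by chondrocytes, synovial cells and myeloid cells. Clu, clusterin, is an extracellular chaperone secreted by many tissues.

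Each library held 17835989 to 19004316 counts in genes. Cartilage transcripts were present in every group, with Col2a1 (collagen II) at 3914 ± 26.5 CPM in PC2, 2272 ± 38.7 CPM in Luc and 220.1 ± 17.3 CPM in Non surgery libraries (SD, n = 3). CPM are counts scaled to a common library size, with sizes adjusted by the TMM method. Markers of muscle, bone, myeloid cells and fat were also present. The labels do not spell out PC2. None of the 8 genes shared an exon base with another annotated gene, and all 8 passed the filter on low counts.

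C1qtnf3 was highest in Luc libraries, and Cytl1 and Ucma in PC2 libraries, and the 250 bases before the RefSeq start of each (GRCm38.p6, plus strand) are shown because these genes had the largest fold changes of the 8 between PC2 and Luc, in opposite directions. C1qtnf3 lies on chromosome 15 (10952332 to 10980150), Cytl1 on chromosome 5 (37735519 to 37739820) and Ucma on chromosome 2 (4976122 to 4985748). Capitals mark matches, on either strand, to the TATA box TATAAA, the SOX core ACAAT, the RUNX core TGTGGT or the AP-1 site TGANTCA.
C1qtnf3, chr15:10952082-10952331: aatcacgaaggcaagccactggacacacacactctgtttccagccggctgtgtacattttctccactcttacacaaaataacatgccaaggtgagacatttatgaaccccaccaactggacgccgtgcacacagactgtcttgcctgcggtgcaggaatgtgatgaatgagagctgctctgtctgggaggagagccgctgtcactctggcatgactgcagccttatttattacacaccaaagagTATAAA
Cytl1, chr5:37735269-37735518: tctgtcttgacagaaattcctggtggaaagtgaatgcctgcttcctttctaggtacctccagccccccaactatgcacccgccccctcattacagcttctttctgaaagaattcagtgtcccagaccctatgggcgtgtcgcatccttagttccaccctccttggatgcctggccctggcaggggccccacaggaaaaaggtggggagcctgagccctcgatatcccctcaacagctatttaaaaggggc
Ucma, chr2:4975872-4976121: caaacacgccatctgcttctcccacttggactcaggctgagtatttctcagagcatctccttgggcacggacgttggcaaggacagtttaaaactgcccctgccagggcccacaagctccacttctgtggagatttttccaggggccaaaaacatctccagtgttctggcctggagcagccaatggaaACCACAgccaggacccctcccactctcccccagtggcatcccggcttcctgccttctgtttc
The C1qtnf3 stretch held TATAAA as its last 6 bases, the Ucma stretch held 1 RUNX core on the minus strand (ACCACA as printed), and the Cytl1 stretch held none of the 4 motifs. Among 32851 RefSeq promoter windows of the same length, 12.4% held TATAAA, 27.7% the SOX core, 14% the RUNX core and 6.75% the AP-1 site. A match is a description of letters, not a binding site, and no match says nothing about a factor.

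The comparison of PC2 with Luc asked how operated joints with the PC2 virus differed from those with the control virus. Of the 8 transcripts, 6 were higher and 2 lower in PC2 libraries. Cytl1 was 3.52-fold and Ucma 2.57-fold higher, Cilp, Cilp2, Scrg1 and Clu rose 1.31-fold to 1.66-fold, Chil1 fell 1.23-fold and C1qtnf3 was 2.44-fold lower. Of the 5 tested genes, 4 rose and 1 fell at an adjusted p under 0.05, where 16.1% of all 17478 genes tested rose and 18.6% fell. PC2 and Luc libraries were apart, with no overlap, for each of the 5 tested genes. Over all genes they were apart for 23.3% with PC2 higher and 24.7% with PC2 lower. C1qtnf3, Cytl1 and Ucma were apart too, but were picked for their changes. The median log2 fold change of the 5 tested genes was 0.46, beside 0.008 over all genes tested. In a whole joint, fewer cells of a type and less RNA per cell cannot be told apart.

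The comparison of Luc with Non surgery addressed the operation together with the control virus. All 8 transcripts were higher in Luc libraries, over a range that ran from 1.09-fold for Cytl1 to 17.6-fold for C1qtnf3. All 5 tested genes rose, where 31.1% of all genes rose and 27.7% fell. The groups did not overlap for any of the 5 tested genes, as for 33.1% of all genes with Luc higher and 29.8% with Luc lower. The median log2 fold change of the 5 tested genes was 0.83, beside 0.025 over all genes. Between PC2 and Non surgery libraries, all 8 were higher as well, over a range of 1.21-fold for Chil1 to 9.61-fold for Ucma. All 5 tested genes rose in that comparison, where 31.5% of all genes rose and 31.2% fell. None of the 5 tested genes overlapped between these groups, as for 33.5% of all genes with PC2 higher and 32.5% with PC2 lower. The median of the 5 tested genes was 1.26, beside 0.010 over all genes. The 3 comparisons share their libraries, so each gene's values are given side by side below.

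**Figure D1:**
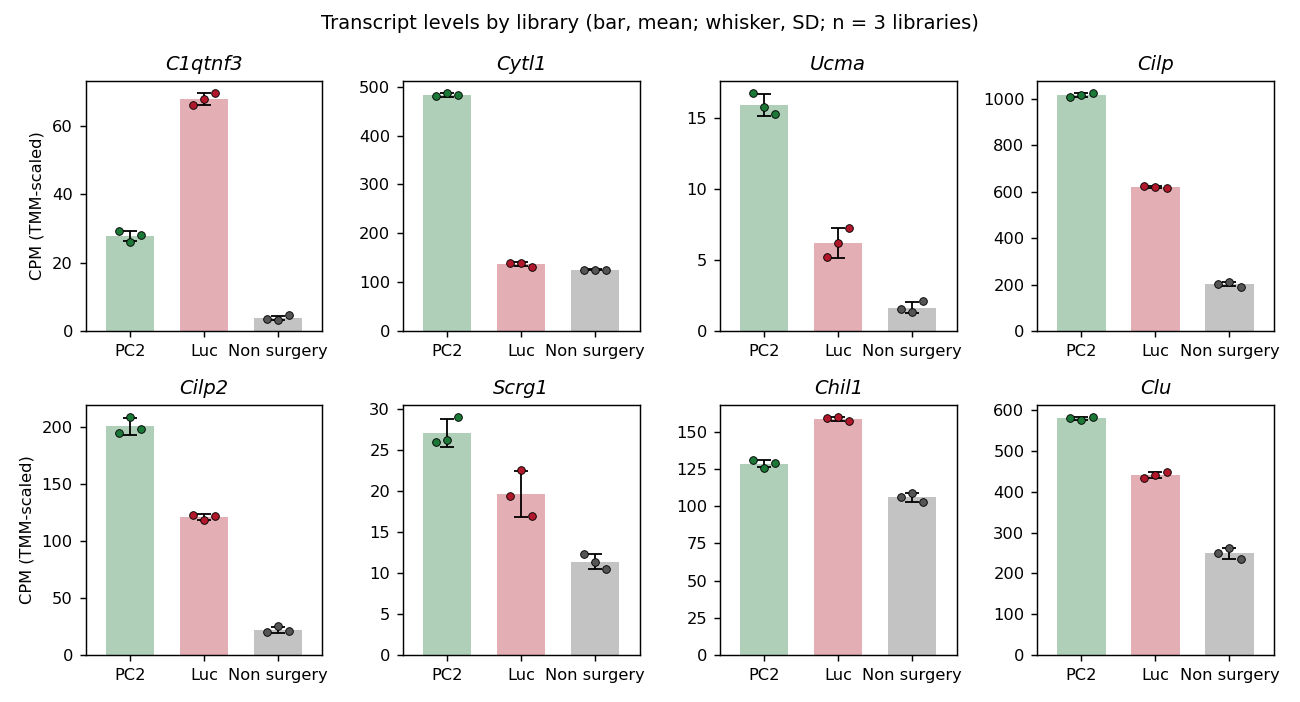
CPM (vertical axes, each from 0) of the 8 genes in PC2, Luc and Non surgery libraries; points are libraries, bars means and whiskers SD (n = 3). C1qtnf3 and Chil1 peak in Luc libraries, Cytl1 is high in PC2 libraries and nearly level in the other groups, and the remaining 5 genes are highest in PC2 and lowest in Non surgery libraries.

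C1qtnf3, a secreted signal, was highest in Luc and lowest in Non surgery libraries. It had 29.1, 26.0 and 28.2 CPM in PC2 libraries, 66.1, 67.8 and 69.5 CPM in Luc libraries, and 3.66, 3.28 and 4.63 CPM in Non surgery libraries. The groups did not overlap, and PC2 libraries lay between the others. The log2 fold change was -1.29 ± 0.063 (SE) for PC2 against Luc, 4.14 ± 0.086 for Luc against Non surgery and 2.85 ± 0.092 for PC2 against Non surgery. C1qtnf3 ranked 230th from the lowest among 17478 genes in the first of these and 26th from the highest in the second. It was picked for its change, so these ranks are a description. Its counts were 57 to 77 per Non surgery library, where counting alone gives a coefficient of variation of 12.4%.

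Cytl1, the other signal, was high in PC2 libraries. It had 480, 487 and 482 CPM in PC2 libraries, 140, 140 and 132 CPM in Luc libraries, and 126, 125 and 126 CPM in Non surgery libraries. Its libraries did not overlap between any groups, but the Luc libraries lay close to the Non surgery libraries. The log2 fold change was 1.81 ± 0.034 (SE) for PC2 against Luc, 0.13 ± 0.034 for Luc against Non surgery and 1.94 ± 0.034 for PC2 against Non surgery. The small difference of Luc from Non surgery depended on scaling, and was 0.29 where libraries were scaled by size only. Cytl1 ranked 50th from the highest in PC2 against Luc and 7137th in Luc against Non surgery. It too was picked for its change, so these ranks are a description.

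Ucma, the Gla-rich inhibitor of mineral deposition, was the least counted of the 8, with 292 to 321 counts per PC2, 100 to 135 per Luc and 23 to 35 per Non surgery library. It had 16.8, 15.8 and 15.3 CPM in PC2 libraries, 5.2, 6.19 and 7.27 CPM in Luc libraries, and 1.56, 1.32 and 2.1 CPM in Non surgery libraries. The groups stepped down in this order without overlap. The log2 fold change was 1.36 ± 0.12 (SE) for PC2 against Luc, 1.90 ± 0.18 for Luc against Non surgery and 3.27 ± 0.16 for PC2 against Non surgery.

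Cilp, the matrix protein of the middle zone, and its relative Cilp2 rose in both operated groups against Non surgery and in PC2 against Luc. Cilp (chromosome 9, 65265180 to 65280605) had 1008, 1015.5 and 1025 CPM in PC2 libraries, 623, 622 and 614 CPM in Luc libraries, and 204, 211 and 192 CPM in Non surgery libraries. Cilp2 (chromosome 8, 69880369 to 69887687) had 195, 209 and 198 CPM in PC2 libraries, 123, 118 and 122 CPM in Luc libraries, and 20.5, 25.2 and 20.6 CPM in Non surgery libraries. Both formed 3 separate steps, highest in PC2 and lowest in Non surgery libraries. For PC2 against Luc, Cilp rose by 0.71 ± 0.033 on the log2 scale (SE; edgeR, adjusted p = 1.45e-10) and Cilp2 by 0.73 ± 0.055 (adjusted p = 4.53e-08). For Luc against Non surgery the log2 fold changes were 1.61 ± 0.034 for Cilp and 2.45 ± 0.064 for Cilp2 (edgeR, adjusted p = 3.51e-16 and 4.25e-15). Against Non surgery, PC2 libraries had 5.02-fold more Cilp and 9.06-fold more Cilp2 (edgeR, adjusted p = 6.94e-18 and 1.86e-16).

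Scrg1, the cysteine-rich protein of differentiating cartilage (chromosome 8, 57455923 to 57477585), had the widest spread among Luc libraries of the tested genes. It had 26.0, 26.3 and 29.1 CPM in PC2 libraries, 19.4, 22.6 and 17.0 CPM in Luc libraries, and 12.3, 11.3 and 10.5 CPM in Non surgery libraries. The groups kept apart, with Luc replicate 2 nearest to the PC2 libraries. Scrg1 rose 1.38-fold in PC2 against Luc (log2 0.46 ± 0.092, SE; edgeR, adjusted p = 0.000919) and 1.73-fold in Luc against Non surgery (0.79 ± 0.10, adjusted p = 4.44e-06). PC2 libraries had 2.39-fold more Scrg1 than Non surgery libraries (edgeR, adjusted p = 1.01e-08).

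Chil1 and Clu are also made outside cartilage, and their changes were the smallest of the tested genes in PC2 against Luc. Chil1 (chromosome 1, 134182176 to 134190181) had 131, 126 and 129 CPM in PC2 libraries, 159, 160 and 157 CPM in Luc libraries, and 106, 109 and 103 CPM in Non surgery libraries. PC2 libraries lay between the others, as for C1qtnf3, over a much narrower range. Chil1 fell by 0.30 ± 0.035 on the log2 scale in PC2 against Luc (SE; edgeR, adjusted p = 5.90e-06), rose by 0.58 ± 0.036 in Luc against Non surgery (adjusted p = 3.61e-10) and rose by 0.28 ± 0.036 in PC2 against Non surgery (adjusted p = 3.82e-06). Clu (chromosome 14, 65968483 to 65981547) had 582, 577 and 584 CPM in PC2 libraries, 434, 442 and 449 CPM in Luc libraries, and 249, 263 and 235 CPM in Non surgery libraries. Its 3 groups were again separate steps with PC2 highest. Clu rose by 0.39 ± 0.037 in PC2 against Luc (SE; edgeR, adjusted p = 5.82e-07), by 0.83 ± 0.038 in Luc against Non surgery (adjusted p = 6.96e-12) and by 1.22 ± 0.038 in PC2 against Non surgery (adjusted p = 4.52e-14).

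**Figure D2:**
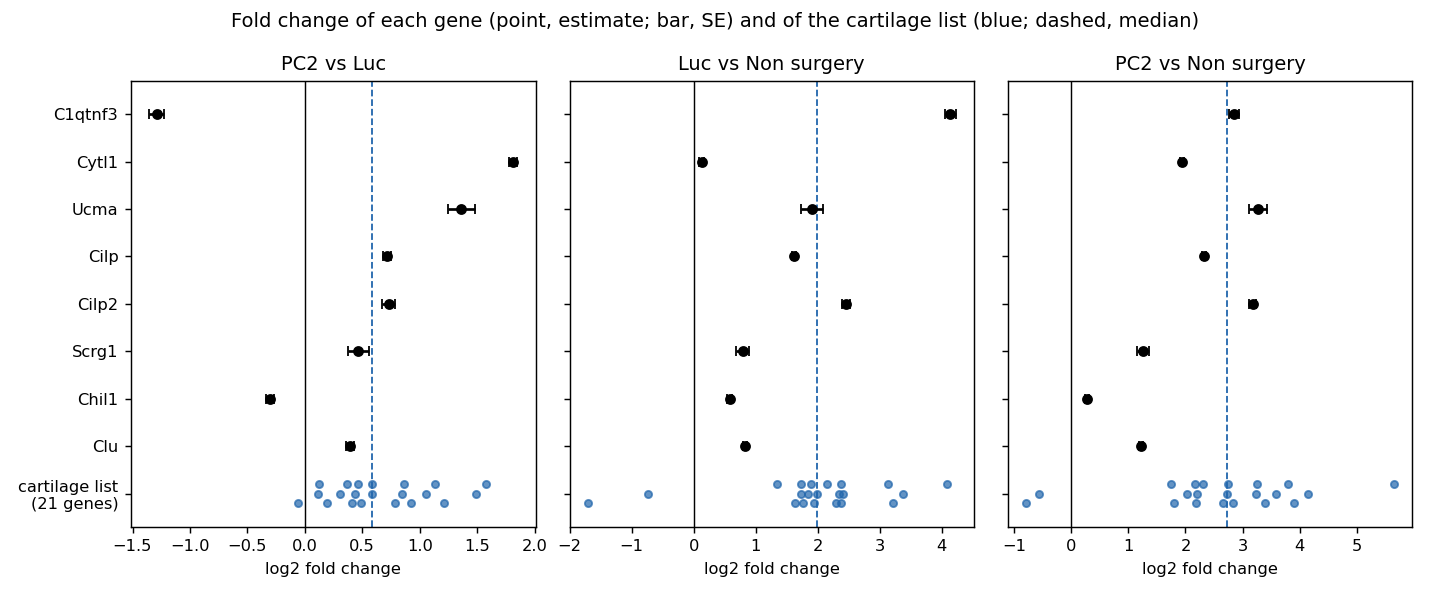
Log2 fold change (horizontal axes) of each of the 8 genes in the 3 comparisons (black points, bars SE), with the 21 tested genes of a cartilage matrix list below (blue points; dashed line, their median of 0.58, 1.99 and 2.73 from left to right). In PC2 against Luc, C1qtnf3 and Chil1 lie left of all 21 list genes and Cytl1 right of all of them. C1qtnf3, Cytl1 and Ucma were picked for their changes.

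Main matrix genes of cartilage gave the setting for these values. Over all genes tested, 16.1% rose and 18.6% fell in PC2 against Luc, and 31.1% rose and 27.7% fell in Luc against Non surgery. In a list of matrix and transcription factor genes of chondrocytes, of which 21 were tested, PC2 against Luc gave 18 that rose and 0 that fell. The median of their log2 fold changes was 0.58. The largest changes were those of the collagen IX chains Col9a1 (1.58), Col9a3 (1.49) and Col9a2 (1.21) and of the matrilin Matn1 (1.13). Cytl1 was above all 21 of these genes and Ucma above 19, Cilp and Cilp2 each had 12 of them below and 9 above, and C1qtnf3 and Chil1 were below all 21. In Luc against Non surgery, 19 rose and 2 fell with a median of 1.99. The largest rises were those of Col9a1 (4.08), Col2a1 (3.37), the leucine-rich proteoglycan gene Epyc (3.22) and the matrilin Matn4 (3.14). Epyc was near the floor in Non surgery libraries, at 0.59 ± 0.36 CPM (SD). The 2 that fell, Matn1 (-1.71) and the transcription factor gene Sox6 (-0.73), were named after their values were seen. There C1qtnf3 was above all 21, while 19 of the 21 were above each of Cytl1, Scrg1, Chil1 and Clu. In PC2 against Non surgery 19 rose and 2 fell, with a median of 2.73, where 31.5% of all genes tested rose and 31.2% fell. These positions were not tested. C1qtnf3, Cytl1 and Ucma were picked for their changes, so their places in the list are a description only.

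Set against collagen II in the same library, most of the 8 genes took a smaller share in operated joints. Cytl1 stood at 12.3% ± 0.0253 of the Col2a1 CPM in PC2, 6.05% ± 0.293 in Luc and 57.4% ± 4.92 in Non surgery libraries (SD, n = 3). C1qtnf3 stood at 0.709% ± 0.0452, 2.98% ± 0.025 and 1.78% ± 0.471 in the same groups, and was the only one of the 8 with a higher share in Luc than in Non surgery libraries. Cilp stood close together in the operated groups, without overlap, at 26.0% ± 0.184 in PC2 and 27.3% ± 0.654 in Luc libraries, against 92.1% ± 2.97 in Non surgery libraries. Cilp2 had 5.13% ± 0.162 in PC2 and 5.33% ± 0.18 in Luc libraries, with overlapping values.

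Acan, the aggrecan core protein, was 2.52-fold higher in Luc libraries when set against Non surgery, where Col2a1 was 10.3-fold higher, and the shares against it were larger. Cytl1 came to 87.7% ± 0.889 of the Acan CPM in PC2, 34.5% ± 1.69 in Luc and 79.8% ± 4.73 in Non surgery libraries (SD, n = 3). Scrg1 came to 4.93% ± 0.263 in PC2 and 4.94% ± 0.765 in Luc libraries, and 7.21% ± 0.818 in Non surgery libraries. Chil1 came to 23.4% ± 0.702 in PC2, 39.9% ± 0.941 in Luc and 67.4% ± 2.75 in Non surgery libraries. Thus the share of Cytl1 was lowest in Luc libraries, and the shares of Scrg1 and Chil1 were lower in both operated groups, as was that of Clu (106% ± 1.71 in PC2, 111% ± 1.03 in Luc and 158% ± 7.55 in Non surgery libraries). The mean shares of the remaining 4 genes were higher in both operated groups, the opposite of their order against Col2a1 except for C1qtnf3 in Luc libraries. C1qtnf3 came to 5.04% ± 0.341 of the Acan CPM in PC2, 17.0% ± 0.242 in Luc and 2.45% ± 0.501 in Non surgery libraries. Ucma came to 2.91% ± 0.18 in PC2, 1.56% ± 0.24 in Luc and 1.06% ± 0.278 in Non surgery libraries, and its Luc and Non surgery libraries overlapped. For Cilp the shares were 185% ± 1.46 in PC2, 155% ± 3.49 in Luc and 128% ± 6.62 in Non surgery libraries, and for Cilp2 they were 36.5% ± 1.16, 30.4% ± 0.722 and 14.0% ± 1.01 in the same groups.

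**Figure D3:**
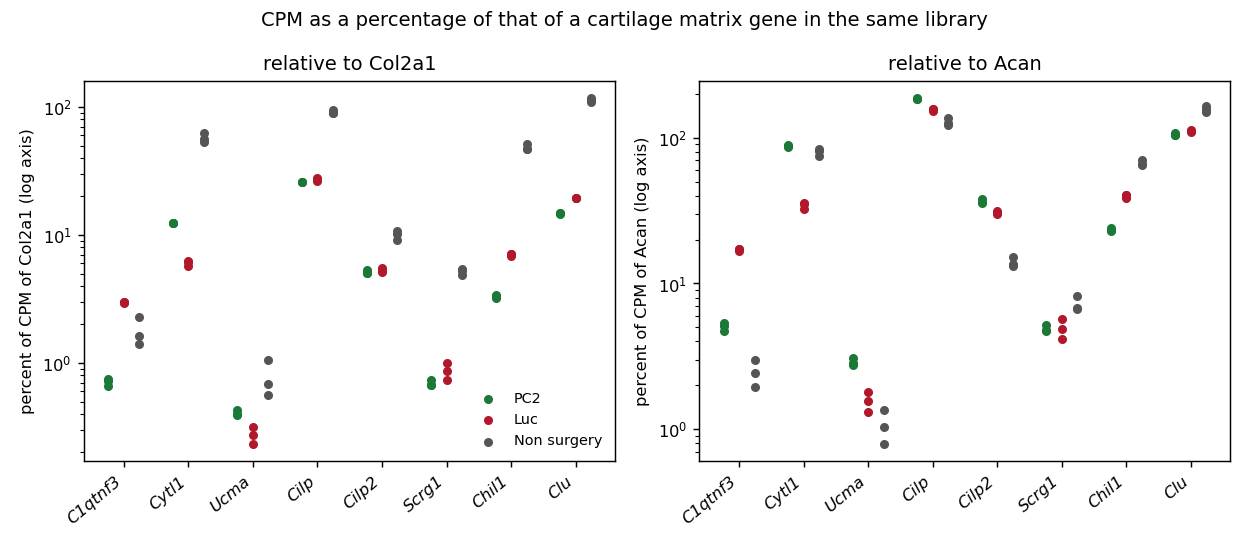
CPM of each gene as a percentage of the CPM of Col2a1 (left) and Acan (right) in the same library, on log axes; each point is 1 of 9 libraries. Relative to Col2a1, Cilp and Cilp2 sit together in PC2 and Luc libraries. On both scales C1qtnf3 is higher in Luc than in PC2 libraries, and Cytl1 higher in PC2 than in Luc libraries. Relative to Col2a1, Cytl1 is highest in Non surgery libraries.

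Levels of different genes were compared per length of exon, as TPM, which divides counts by exon length and scales each library to the same sum. The 8 genes summed to 3207 ± 31.2 TPM in PC2, 1784 ± 37.2 TPM in Luc and 783.5 ± 22.4 TPM in Non surgery libraries (SD, n = 3). These sums hold C1qtnf3, Cytl1 and Ucma, which were picked for their changes, so their differences between groups are a description only. Much of the difference between PC2 and Luc sums lay in Cytl1. Cytl1, with only 1056 exon bases, was first in PC2 (1430 ± 17.2 TPM) and Non surgery libraries (309.2 ± 2.78 TPM), and second in Luc libraries (421.1 ± 10.2 TPM). Cilp was first in Luc libraries with 471.8 ± 6.77 TPM, and Clu came after Cytl1 with 416.7 ± 15.4 TPM, a value whose spread overlapped that of Cytl1. In PC2 libraries Cilp followed Cytl1 with 747.4 ± 9.39 TPM and Clu came next with 528.5 ± 3.59 TPM. In Non surgery libraries Clu was second with 188.1 ± 11.6 TPM and Cilp came next with 123.5 ± 6.4 TPM.

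The lower ranks also changed place between groups. Cilp2 had 145.5 ± 5.98 and Chil1 143.7 ± 2.02 TPM in PC2 libraries, which do not differ beyond their spread, and Scrg1 followed with 121.2 ± 7.91 TPM. In Luc libraries Chil1 had 183.5 ± 3.59 TPM, while Cilp2 (90.9 ± 2.58), Scrg1 (90.9 ± 12.7) and C1qtnf3 (85.9 ± 3.88) were alike within their spread. Within each Luc library, however, Cilp2 was above C1qtnf3. In Non surgery libraries Chil1 had 98.4 ± 3.33, Scrg1 42.1 ± 2.98 and Cilp2 13.3 ± 1.78 TPM. Ucma had 56.5 ± 2.42 TPM in PC2, 22.8 ± 4.26 TPM in Luc and 4.88 ± 1.18 TPM in Non surgery libraries. C1qtnf3 was last in PC2 (33.9 ± 1.83 TPM) and Non surgery libraries (3.91 ± 0.711 TPM). In Non surgery libraries its spread overlapped that of Ucma, though Ucma was above it within each library.

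**Figure D4:**
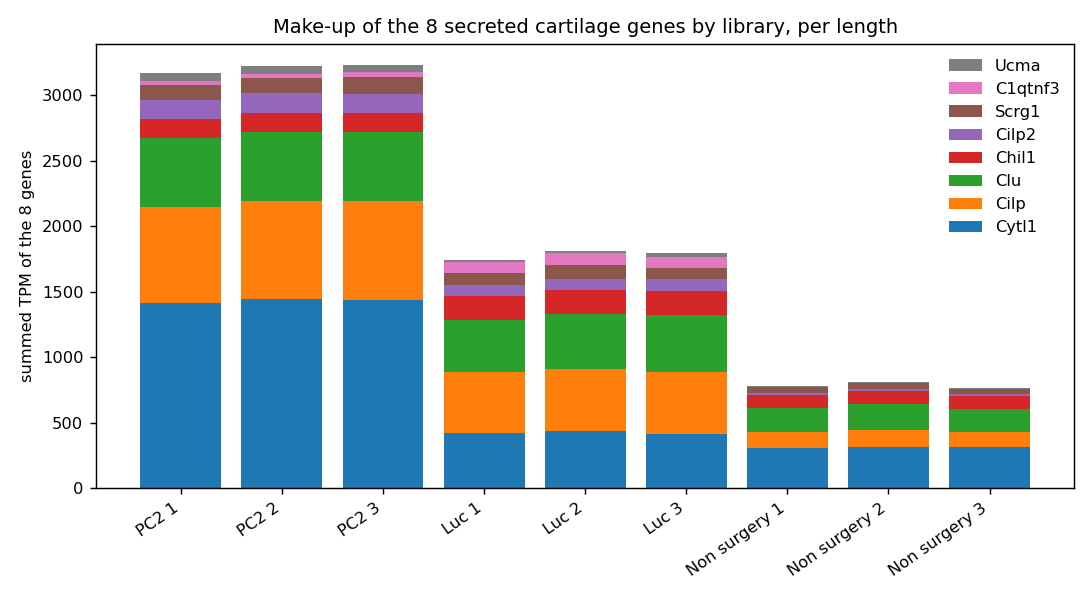
Summed TPM of the 8 genes (vertical axis) in each of the 9 libraries, stacked by gene. Cytl1 made up 44.6% of the sum in PC2, 23.6% in Luc and 39.5% in Non surgery libraries, and C1qtnf3 1.06%, 4.82% and 0.501%. The sum includes C1qtnf3, Cytl1 and Ucma, which were picked for their changes.

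Related genes and partners were counted by list. Over all genes tested, 16.1% rose and 18.6% fell in PC2 against Luc. In Luc against Non surgery 31.1% rose and 27.7% fell. List and marker counts here and below stand beside these shares, and no list was tested as a set. In the vitamin K and Gla protein list, which Ucma belongs to by chemistry, 3 of 7 tested genes rose and 1 fell in PC2 against Luc. Bglap (0.49) and Bglap2 (0.45), the osteocalcins of bone, rose, but they are near-identical copies whose reads may be split. Ggcx, the gamma-carboxylase itself, rose by 0.19, and the anticoagulant protein S gene Pros1 fell by 0.12, a call lost in most alternatives (adjusted p up to 0.209 without Luc replicate 2). In Luc against Non surgery 6 of the 7 rose, with Bglap at 1.55, Bglap2 at 1.52, Ggcx at 0.91 and Gas6, a growth-arrest ligand, at 0.42. The list's median was 0.06 in the first and 0.42 in the second comparison.

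Among C1q/TNF-related genes other than C1qtnf3, 6 of 8 rose and 1 fell in Luc against Non surgery, with C1qtnf2 at 3.16, C1qtnf6 at 1.97, C1qtnf1 at 1.49 and C1qtnf7 at 1.38. In PC2 against Luc, 1 rose and 2 fell: the adipocyte hormone gene Adipoq had 0.67, C1qtnf1 -0.20 and C1qtnf6 -0.16. The median of the list was 1.07 in the first of these and 0.04 in the second. Of 4 tested chitinase family genes other than Chil1, 1 rose and 0 fell in PC2 against Luc, namely Chil3, a chitinase-like gene of myeloid cells, by 0.12. In Luc against Non surgery 1 rose and 1 fell: Ctbs, the lysosomal chitobiase gene, had 0.40 and Chil3 had -1.44. The call of Ctbs was lost without Luc replicate 2 (adjusted p = 0.068 with edgeR) or Non surgery replicate 1 (0.0569).

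Of 9 tested genes for reported receptors and binding partners, 0 rose and 7 fell in PC2 against Luc, with a median of -0.20. Over all genes, 16.1% rose and 18.6% fell. Il13ra2, a receptor for Chil1, was low, at 1.62 ± 0.186 CPM in PC2 and 3.36 ± 1.08 CPM in Luc libraries (SD). Its log2 fold change was -1.04 ± 0.237 (SE). Bst1, a reported receptor of Scrg1, had 14.3 CPM in PC2 and 22.6 CPM in Luc libraries (-0.66). Igf1, the growth factor that Cilp hampers, had 124 CPM in PC2 and 178.4 CPM in Luc libraries (-0.53). Lrp8, a clusterin receptor, had -0.23, a call lost in most alternatives (adjusted p up to 0.268 without Luc replicate 1). In Luc against Non surgery 3 rose and 4 fell; Igf1 had 1.72, the lipoprotein receptor gene Vldlr, also a clusterin receptor, -1.0, the fatty acid transporter gene Cd36 -0.87 and Lrp8 -0.43.

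Genes with the profile most like C1qtnf3, Cytl1 and Ucma were sought among 11576 named genes with a mean of at least 5 CPM by the root mean square difference of centred log2 CPM over the 9 libraries. Nearest to C1qtnf3 were the recombinase gene Rag1 (0.23), the B cell precursor gene Igll1 (0.29) and the nuclear receptor gene Nr4a2 (0.31). Rag1 averaged 24.2 CPM in PC2, 46.4 CPM in Luc and 3.48 CPM in Non surgery libraries. Nearest to Cytl1 were the fat hormone gene Retn (0.11), Lrrc38 (0.11), which encodes a potassium channel subunit, and the fatty acid synthase gene Fasn (0.18). Retn averaged 10.8 CPM in PC2, 2.7 CPM in Luc and 2.72 CPM in Non surgery libraries. Nearest to Ucma were Matn3 (0.25), a matrilin of cartilage, Meltf (0.28), an iron-binding surface protein, and Rspo4 (0.28), a Wnt agonist. With 1 pool per group, a shared profile rests on 3 independent samples.

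Other tissues in the joint moved with the same groups. Muscle markers were lower in Luc than in Non surgery libraries, where all 8 genes were higher: the 10 fast muscle markers all fell (summed 24905 to 25404 CPM in Luc and 57974 to 60206 CPM in Non surgery libraries), and so did the 6 slow ones (24.7 to 25.7 CPM in Luc and 313.1 to 339.4 CPM in Non surgery libraries). In PC2 against Luc, 9 of the 10 fast markers rose, with 29453 to 29545 CPM in PC2 libraries. Fat markers moved in the direction of Cytl1 in PC2 against Luc: 6 of 8 rose and 0 fell, with 636.3 to 672.1 CPM in PC2 and 442.9 to 520.4 CPM in Luc libraries. Retn, the nearest profile to Cytl1, is 1 of these 8 markers. In Luc against Non surgery, where Cytl1 was nearly level, 2 of these fat markers rose and 4 fell, and their sum was 823.9 to 855.3 CPM in Non surgery libraries. None of the markers in these lists was at 0 in any group. Their part in the differences of the 8 genes was not tested.

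Synovial, macrophage and neutrophil markers were also counted, because Chil1 is made by such cells. All 8 synovial fibroblast markers rose in Luc against Non surgery (11530 to 11697 CPM in PC2, 11618 to 11943 CPM in Luc and 2726 to 3052 CPM in Non surgery libraries), and in PC2 against Luc 1 rose and 4 fell. Of 9 macrophage markers, 2 rose and 4 fell in PC2 against Luc, and of 9 neutrophil markers 6 rose and 2 fell. The macrophage markers summed to 888.7 to 891.6 CPM in PC2, 906.8 to 922.7 CPM in Luc and 860.2 to 886.1 CPM in Non surgery libraries, and the neutrophil markers to 11248 to 11473, 10388 to 10966 and 12709 to 13101 CPM in the same groups. In Luc against Non surgery, 4 macrophage markers rose and 2 fell, and 1 neutrophil marker rose and 8 fell. Of 8 hypertrophic chondrocyte genes, 5 rose and 2 fell in PC2 against Luc, with Ihh at 0.63, Panx3 at 0.37, Mmp13 at -0.33 and Spp1 at -0.62, and all 8 rose in Luc against Non surgery. Bone markers, 8 in all, rose together in Luc against Non surgery, and 4 rose and 3 fell in PC2 against Luc, with sums of 17236 to 17425 CPM in PC2, 14815 to 15272 CPM in Luc and 4413 to 4757 CPM in Non surgery libraries. No marker of these 5 lists was at 0 in any group, and their part in the differences of Chil1 and the other genes was not tested.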

How the data were processed

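The authors deposited unnormalised counts of reads in genes, keyed by Ensembl ID, in a table for each library; its 5 HTSeq summary lines stayed out of sizes and tests. HISAT2, HTSeq, DESeq2 and mm10 are named, without versions, per the submitters' processing notes; the sources used here give no annotation release, strand setting or read filter. Reads outside genes made up 8.11% ± 0.0609 in PC2, 9.08% ± 0.183 in Luc and 7.33% ± 0.0384 in Non surgery libraries, and reads shared between genes 6.02% ± 0.075, 5.81% ± 0.148 and 6.52% ± 0.116. Symbols, positions and exon lengths were taken from the M21 release of GENCODE on GRCm38 (mm10), where 53274 of the IDs were found. Promoter windows came from RefSeq (GRCm38.p6), which matched 6 of the 8 genes.

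Counts were tested with edgeR 4.0.16 in R 4.3.3 (quasi-likelihood, two-sided) in 1 fit of all 9 libraries with a group factor, TMM factors and filterByExpr (minimum count 10), which kept 17478 genes. Benjamini-Hochberg adjustment ran over every gene tested, and a gene rose or fell at an adjusted p under 0.05. SE was the absolute log2 fold change divided by the root of the F statistic. TPM used counts over exon length without TMM scaling. Libraries of a group differed by more than counting noise (chi-square per degree of freedom 3.94 to 8.67), so none was a copy. The fit was tested on simulated data. The members, gene lists and tests were chosen with earlier results of these data known. Named genes were the 8 members, Col2a1 and Acan (another gene fixed with these is not reported here), up to 4 passing genes per list with the largest change (up to 2 for tissue markers, mostly given as counts), and the 3 nearest profiles of C1qtnf3, Cytl1 and Ucma. Alternatives were median-of-ratios factors, library size only, no or a stricter filter on low counts, DESeq2 1.42.0, fits of the 2 groups compared, a replicate block and leaving out each library.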

Additional observations from a re-analysis of the deposited data

How the results depend on the processing

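The log2 fold changes of the 8 genes in 3 comparisons kept their direction in all 312 alternative values, and the 5 tested genes kept an adjusted p under 0.05 in all 13 alternatives of each comparison. The largest was 0.00653, for Scrg1 in PC2 against Luc. Shifts of C1qtnf3, Cytl1 and Ucma were set against the library SD. Values of 2 of their results moved by more, both for Cytl1 with library size only: 0.29 in Luc and 2.10 in PC2, each against Non surgery. The 5 tested genes were judged by their call and not by this SD. Their values against Non surgery also shifted with library size only. Chil1 then had 0.74 in Luc and 0.44 in PC2 (0.58 and 0.28 with TMM). Without TMM factors, on library sizes alone, the median over all genes was 0.185 in Luc against Non surgery (0.025 with TMM) and 0.168 in PC2 against Non surgery (0.010 with TMM), and calls came to 7754 higher and 3304 lower (5431 and 4848 with TMM) and to 7607 and 3761 (5505 and 5447 with TMM). Folds against Non surgery are thus relative to the TMM scale.

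Genes past the threshold numbered 4921 to 5328 without single libraries in PC2 against Luc (6058 with all). Among other named genes, 31 of 1391 alternative values lost a call and 0 turned direction. Deviations of same-numbered libraries correlated at -0.0274 to 0.0567, and those of differently numbered libraries at -0.0772 to 0.0457. Of 9 libraries, 6 correlated best with their own number. Whether the replicate numbers pair the libraries weakly cannot be told from these values. With a replicate block, 6192 genes passed in PC2 against Luc, 10327 in Luc against Non surgery (10279 without it) and 11019 in PC2 against Non surgery (10952 without it). Depth limits Ucma most, with 23 to 35 counts per Non surgery library. With 1 pool per group, no alternative can show how mice differ.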

Other observations

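The spread between technical repeats was near counting noise for some of the 8 genes and above it for others. For Scrg1 the coefficient of variation among Luc libraries was 14.3%, where counting alone gives 5.19%, and among PC2 libraries 6.21% against 4.37%. For Cilp it was 0.798% in PC2 and 4.85% in Non surgery libraries, where counting gives 0.714% and 1.71%. Clu had 0.602% in PC2 and 5.66% in Non surgery libraries, with 0.945% and 1.54% from counting. Cytl1 varied less than counting gives in Non surgery libraries (0.768% against 2.17%).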
